A study of Bos taurus with 6 samples.

Results

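Zinc transporters and metallothioneins were examined in cumulus cells of the cow, the somatic layer around the oocyte. The set holds 10 genes, and every probe set whose only gene symbol in the platform annotation is one of them was taken. SLC39A10 had no such probe set and was not analysed here. The other 9 genes, among 9155 named in the whole series, had 10 of its 24016 probe sets: 5 genes of zinc uptake (SLC39A8, SLC39A14, SLC39A1, SLC39A6 and SLC39A7), 2 of zinc removal (SLC30A1 and SLC30A5) and 2 metallothioneins (MT1A and MT2A). The set was selected on the difference between large and small follicles that SLC39A8 had already shown in these arrays. The differences of these 10 probe sets are therefore given as a description, with no p-value. Where one is said to pass or not to pass the threshold of the fit over all probe sets, or to be called, this describes its place in that fit and supports nothing about the set.

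The data are 6 Affymetrix bovine arrays of RNA from pooled cumulus cells. For 3 of them the cells came from follicles of 8 mm or more, whose complexes the submitters call competent, and for 3 from follicles measuring 1 to 3 mm, called incompetent. All cells came from ovaries of slaughtered crossbred cows (Bos indicus x Bos taurus), from complexes with compact cumulus that were stripped by pipetting, with no treatment in either group. Follicle size stands in for the capacity of the oocyte, and the sources used here give neither the number nor the age of the cows behind each pool. By their titles the arrays are biological replicates, so errors measure the spread between pools. Precision is limited by the number of arrays.

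Cells hold almost all of their zinc bound to protein. ZIP proteins, made by the SLC39 genes, bring zinc into the cytosol from outside the cell or from organelles, and ZnT proteins, made by the SLC30 genes, move it out of the cytosol. Metallothioneins are small cysteine-rich proteins that bind zinc and copper, and their genes are switched on by the zinc-sensing transcription factor MTF1. In the mouse, the oocyte takes up zinc as it matures, and the cumulus cells around it affect its level of free zinc.

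The deposited values are log2 signals, so a difference of 1 is a 2-fold difference, and levels of different probe sets are not compared. The array medians lay between 5.64 and 5.68. At a Benjamini-Hochberg adjusted p of 0.05 over all 24016 probe sets, limma called 12.9%, 5.72% higher and 7.16% lower in large-follicle arrays, and the groups did not overlap in 30.9%. The median difference over all of them was 0.01 and the median size 0.15. Most markers of granulosa and cumulus cells were bright: INHBA, a subunit of activin, averaged 14.07 in large-follicle arrays and 12.93 in small-follicle arrays, whereas FOXL2 averaged 4.89 in large-follicle arrays and 4.58 in small-follicle arrays. Of 13 such markers measured, 6 were called higher and 1 lower. Of 14 leukocyte markers, 14 were higher in sign and 2 called (CORO1A and LCP1), with mean levels of 4.43 to 5.34 in large-follicle arrays and 4.14 to 4.69 in small-follicle arrays. Their differences ran from 0.01 to 1.02 (CD14, at its brighter probe set), with a median of 0.41. PTPRC, the defining leukocyte gene, averaged 3.57 and 3.49 in large- and small-follicle arrays, a dim signal (the lower quartile of the means of all probe sets was 3.83). Other leukocyte markers were brighter: in large-follicle replicate 1, CSF1R, AIF1 and LAPTM5 reached 7.10, 7.09 and 7.01. Theca markers averaged 6.75 to 7.30 in large-follicle arrays and 6.34 to 6.74 in small-follicle arrays, with 6 of 6 higher in sign and 0 called. Among them PDGFRA, a growth factor receptor of theca and stromal cells, averaged 8.40 ± 0.35 in large-follicle arrays and 7.03 ± 0.95 in small-follicle arrays (SD, n = 3 each). This difference of 1.37 did not pass (limma, Benjamini-Hochberg adjusted p = 0.0683). It belongs to the brightest probe set of PDGFRA, and the dimmer ones differed by 0.07 ± 0.15 and -0.06 ± 0.12. STAR, which brings cholesterol into mitochondria for steroid synthesis, differed by 0.91 ± 0.41. The theca markers CYP17A1 and INSL3 differed by 0.12 ± 0.19 and 0.03 ± 0.29. A sign of RNA quality differed as well: the 3' minus 5' signal of 6 control transcripts was 1.98 ± 0.19 in large-follicle arrays and 2.46 ± 0.27 in small-follicle arrays (SD, n = 3 each; 2-sided exact permutation test, p = 0.1, and 3 arrays against 3 allow no smaller p). With this index as a covariate, 215 probe sets were called in place of 3094. The index did not overlap between the groups (1.77 to 2.15 in large-follicle arrays, 2.16 to 2.68 in small-follicle arrays). Its part and that of follicle size therefore cannot be told apart.

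SLC39A8, also called ZIP8, had the largest difference of the 10 probe sets. It lies at the cell surface and carries zinc, manganese and iron in human and mouse cells. Its probe set read 9.77, 9.11 and 9.31 in large-follicle arrays, against 6.52, 7.44 and 7.60 in small-follicle arrays. Every large-follicle array lay above every small-follicle array, with a gap of 1.51 between the lowest large-follicle and the highest small-follicle value. The means were 9.40 ± 0.34 and 7.19 ± 0.58 in large- and small-follicle arrays (SD, n = 3 each). The difference was 2.21 ± 0.28 (log2 difference ± SE), or 4.63-fold, and ranked 18 among the increases of all 24016 probe sets.

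The spread of SLC39A8 was wider among small-follicle arrays (1.08 from lowest to highest) than among large-follicle arrays (0.66). Small-follicle replicate 1 was the lowest, and without it the difference was 1.88 ± 0.19. Leaving out each array in turn gave 1.88 to 2.42. Leukocytes, in which the gene is also active in humans, can be set beside it: with the mean leukocyte marker level as a covariate the difference was 1.89 ± 0.29. With the 3' minus 5' signal as a covariate it was 1.93 ± 0.47 and no longer passed the threshold. The mean leukocyte marker level was, like SLC39A8, highest in large-follicle replicate 1 (5.34) and small-follicle replicate 3 (4.69). It was lowest in large-follicle replicate 3 (4.43) and small-follicle replicate 2 (4.14). SLC39A8 was lowest in large-follicle replicate 2 and small-follicle replicate 1. Whether leukocytes had a part in the shared highest arrays was not tested. Among the theca markers, PDGFRA at its brightest probe set was, like SLC39A8, highest in large-follicle replicate 1 (8.71) and lowest in small-follicle replicate 1 (5.93). STAR (6.92 and 4.77) and HSD3B1 (9.57 and 9.11) had the same highest large-follicle and lowest small-follicle array. CYP17A1, INSL3 and LHCGR did not. For CYP17A1, replicate 1 was the highest small-follicle array (4.90), and for INSL3 it was the lowest large-follicle array (9.29). How many of all probe sets have the same extreme arrays was not counted, so these matches cannot be weighed. The part of the theca markers in the difference was not tested. In pooled cells, more cells with the transcript and more transcript per cell cannot be told apart.

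The genes whose 6-array profile lay closest to that of SLC39A8 were CYP19A1, TIMP1, TCN2 and DUSP7. Likeness was read as the mean absolute difference between profiles, each centred on its own mean over the 6 arrays. It was 0.20 log2 units for CYP19A1, the aromatase that makes oestrogens, 0.24 for TIMP1, an inhibitor of matrix metalloproteinases, 0.26 for TCN2, a carrier of vitamin B12, and 0.26 for DUSP7, a phosphatase that acts on MAP kinases. Genes chosen this way must differ between the groups much as SLC39A8 does. The choice also favours a like order of the arrays within each group, so neither likeness is a separate result. CYP19A1 read 12.77, 11.88 and 12.11 in large-follicle arrays, against 9.91, 10.30 and 10.14 in small-follicle arrays. Replicate 1 was the highest of the large-follicle arrays and the lowest of the small-follicle arrays in CYP19A1, as it was in SLC39A8. For CYP19A1 the likeness belongs to 1 of its 4 probe sets: a dimmer one differed by 1.30 ± 0.12, with a distance of 0.46, and the other pair, both below the lower quartile in signal, differed by 0.07 and 0.13, with distances of 1.07 and 1.04. For TCN2 it belongs to 1 of its 5 probe sets: that one differed by 1.70 ± 0.18, but others read -0.49 ± 0.11, -0.42 ± 0.12, 0.04 ± 0.09 and 0.15 ± 0.15.

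**Figure D1:**
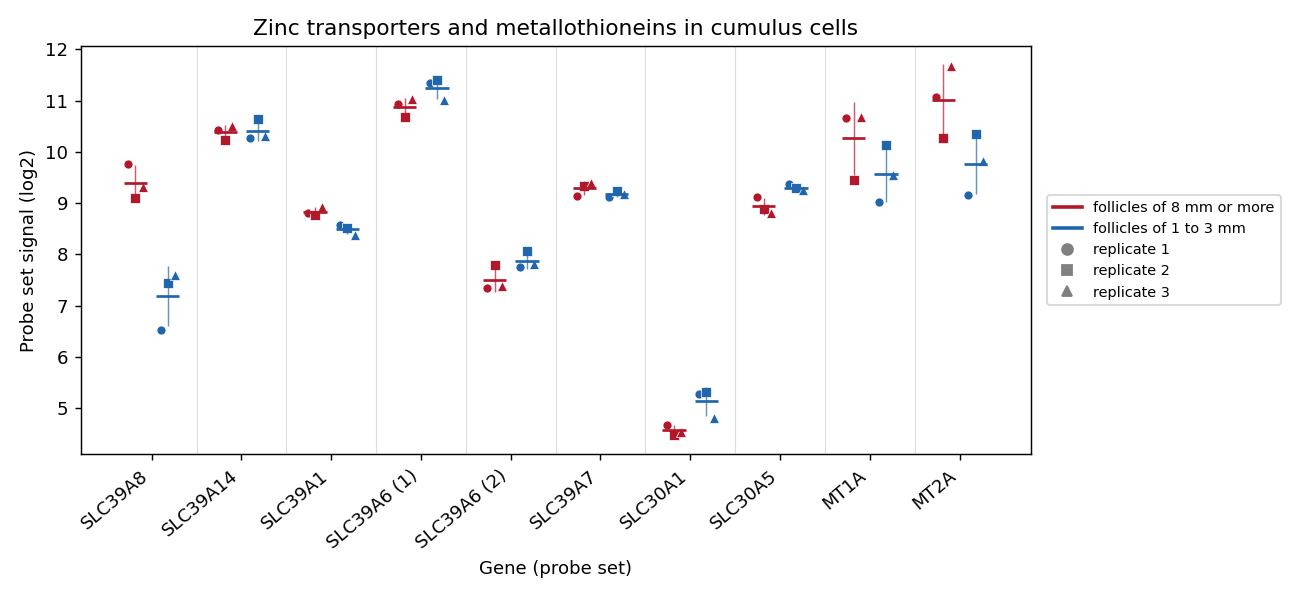
Log2 signal of the 10 probe sets on each of the 6 arrays, follicles of 8 mm or more in red and of 1 to 3 mm in blue, with group means (horizontal bars) and SD (vertical lines). SLC39A8 shows the widest separation, with 9.11 as the lowest large-follicle value and 7.60 as the highest small-follicle value, while SLC39A14, SLC39A6, SLC39A7 and both metallothioneins overlap between groups.

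The other ZIP genes had smaller differences. SLC39A14, or ZIP14, is the closest relative of SLC39A8 and carries zinc, iron and manganese. It read 10.43, 10.23 and 10.51 in large-follicle arrays, against 10.27, 10.64 and 10.31 in small-follicle arrays. The groups overlapped, and the difference was -0.02, with a 95% confidence interval of -0.32 to 0.28. Its sign turned in some alternatives, among them 0.06 when large-follicle replicate 2 was left out and 0.10 when small-follicle replicate 2 was. The interval of SLC39A8 ran from 1.56 to 2.86. The set was selected on that difference, so this interval is a description and takes no account of the selection.

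SLC39A1, a widely expressed zinc importer of the plasma membrane, read 8.81, 8.77 and 8.93 in large-follicle arrays, against 8.57, 8.51 and 8.38 in small-follicle arrays. The groups did not overlap, though the gap was only 0.20. The difference was 0.35 ± 0.10 and lay just outside the threshold, which it passed in 4 of 15 alternatives.

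SLC39A6 belongs to the LIV-1 group of ZIP proteins and is known in human breast cells as an oestrogen-responsive gene. Its brighter probe set read 10.93, 10.68 and 11.03 in large-follicle arrays, against 11.35, 11.41 and 11.01 in small-follicle arrays. The second read 7.34, 7.79 and 7.39 in large-follicle arrays, against 7.75, 8.07 and 7.82 in small-follicle arrays. Each probe set overlapped between the groups through a single array, large-follicle replicate 3 above small-follicle replicate 3 in the first and large-follicle replicate 2 above small-follicle replicate 1 in the second. Their differences were nearly equal, -0.38 ± 0.14 and -0.37 ± 0.15, and neither passed. With the 3' minus 5' signal as a covariate they parted, at -0.02 ± 0.17 for the brighter and -0.57 ± 0.23 for the other. The brighter probe set passed in no alternative, and the other in 1 of 15, with array weights (-0.48).

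SLC39A7, which releases zinc from the endoplasmic reticulum and Golgi into the cytosol, read 9.14, 9.33 and 9.40 in large-follicle arrays, against 9.13, 9.23 and 9.17 in small-follicle arrays. The groups overlapped. The difference was 0.11, with a 95% confidence interval of -0.12 to 0.35.

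Both ZnT genes had lower values in large-follicle arrays. SLC30A1, the zinc exporter of the plasma membrane and a known target of MTF1, read 4.68, 4.48 and 4.54 in large-follicle arrays, against 5.28, 5.32 and 4.81 in small-follicle arrays. The groups did not overlap, and small-follicle replicate 3 came within 0.13 of the highest large-follicle array. The difference was -0.57 ± 0.15, a 1.48-fold lower signal in large-follicle arrays. Its signal lay below the median of probe set means (5.67), so its size is less certain. The call was lost when replicate 1 (-0.63), 2 (-0.53) or 3 (-0.56) of the large-follicle arrays or replicate 1 (-0.50) or 2 (-0.48) of the small-follicle arrays was left out, and with a covariate for the 3' minus 5' signal (-0.17) or for leukocyte markers (-0.52). It was also lost with the replicate block and at a threshold of 0.01, and so in 9 of 14 alternatives.

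SLC30A5, which loads zinc into the secretory pathway and works there as a pair with SLC30A6, read 9.13, 8.89 and 8.81 in large-follicle arrays, against 9.37, 9.29 and 9.25 in small-follicle arrays. The groups did not overlap, with a gap of 0.12. The difference was -0.36 ± 0.11 and did not pass. It passed in 2 of 15 alternatives, with the filter at the median signal and with the trended robust prior.

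The metallothioneins had higher means in large-follicle arrays, but the arrays of each group were widely spread. MT2A read 11.07, 10.27 and 11.67 in large-follicle arrays, against 9.15, 10.34 and 9.83 in small-follicle arrays. Small-follicle replicate 2 lay above large-follicle replicate 2, so the groups overlapped. The means were 11.00 ± 0.70 in large-follicle arrays and 9.77 ± 0.60 in small-follicle arrays (SD, n = 3 each). The difference was 1.23 ± 0.38, or 2.35-fold, with a 95% confidence interval of 0.36 to 2.10, and did not pass. It passed in 1 of 15 alternatives, without large-follicle replicate 2 (1.60), and was lowest when large-follicle replicate 3 (0.90) or small-follicle replicate 1 (0.92) was left out.

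MT1A read 10.66, 9.45 and 10.69 in large-follicle arrays, against 9.03, 10.13 and 9.55 in small-follicle arrays. The overlap was wider than for MT2A, since large-follicle replicate 2 lay below 2 of the small-follicle arrays. The difference was 0.70 ± 0.37, with a 95% confidence interval of -0.15 to 1.54, and did not pass. Leaving out 1 array in turn gave 0.43 (without small-follicle replicate 1) to 1.10 (without large-follicle replicate 2), and no alternative made it pass.

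Metallothionein genes lie side by side and are alike in sequence, so a probe set can read more than 1 of them. In the RefSeq annotation of ARS-UCD2.0, LOC768319 and LOC613358 stand between MT1A and MT2A, and both carry MT1E as a synonym. LOC613358, looked up after the data were seen, had a probe set of its own. It read 10.09, 10.50 and 11.27 in large-follicle arrays, against 10.01, 10.75 and 9.99 in small-follicle arrays. The groups overlapped, and the difference was 0.37 ± 0.31, with no call by limma (Benjamini-Hochberg adjusted p = 0.512; alternatives gave 0.113 to 0.946). Leaving out 1 large-follicle array gave 0.045 (replicate 3) to 0.64 (replicate 1).

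MT1A and MT2A varied together between arrays of the same group. MT2A deviated from its group mean by 0.07, -0.73 and 0.67 in large-follicle replicates 1, 2 and 3, and MT1A by 0.39, -0.82 and 0.42. In small-follicle replicates 1, 2 and 3 the deviations were -0.62, 0.57 and 0.06 for MT2A and -0.54, 0.56 and -0.02 for MT1A. The order of the arrays within each group was the same for both genes, and it was also the order of MTF1 and of SLC39A14. Over the whole table, 528 of the 21169 probe sets without tied values in a group had this order (2.49%). SLC39A8 did not, nor did LOC613358 and MT3, which are also metallothionein genes. The 3' minus 5' signal was highest in large-follicle replicate 1 (2.15) and small-follicle replicate 1 (2.68). Among large-follicle arrays it was lowest in replicate 2 (1.77), as were MT1A, MT2A, MTF1 and SLC39A14. Among small-follicle arrays it was lowest in replicate 3 (2.16), whereas these genes were lowest in replicate 1. The leukocyte markers were highest in large-follicle replicate 1 (5.34) and small-follicle replicate 3 (4.69). Whether RNA quality or leukocytes had a part in the shared order of the genes was not tested. That shared order was noticed in these data and carries no test.

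**Figure D2:**
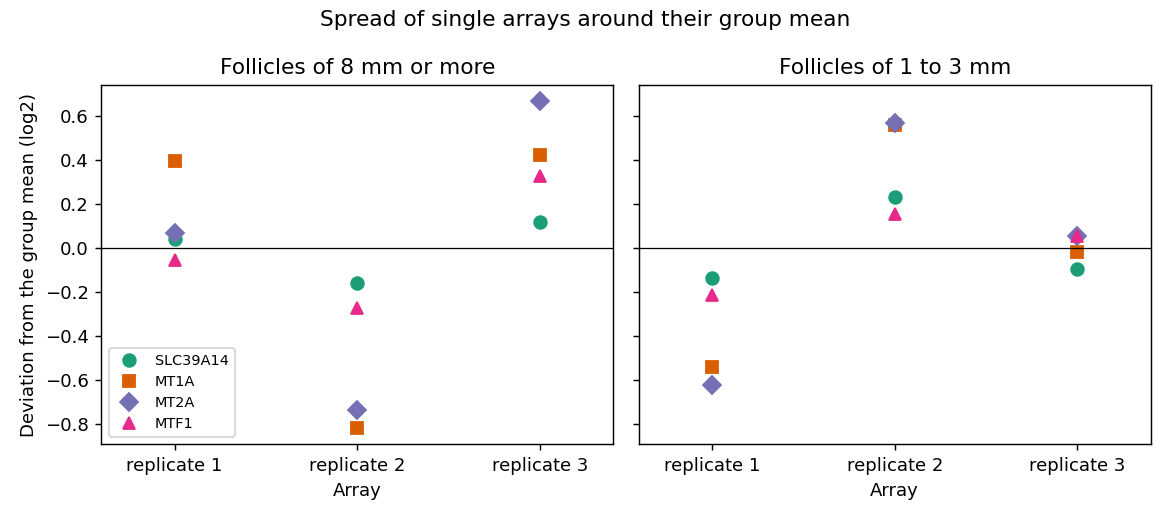
Deviation of each array from the mean of its group in log2 signal for SLC39A14, MT1A, MT2A and MTF1, follicles of 8 mm or more on the left and of 1 to 3 mm on the right. All 4 genes are lowest in large-follicle replicate 2 and small-follicle replicate 1 and highest in large-follicle replicate 3 and small-follicle replicate 2.

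Of the 10 probe sets, 2 were called, SLC39A8 higher and SLC30A1 lower, beside 12.9% of all probe sets. In 4 the groups did not overlap (SLC39A8, SLC39A1, SLC30A1 and SLC30A5), beside 30.9% of all. The median difference was 0.05 and the median size 0.38. These counts describe the set and carry no test, since the set was chosen with this contrast known.

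**Figure D3:**
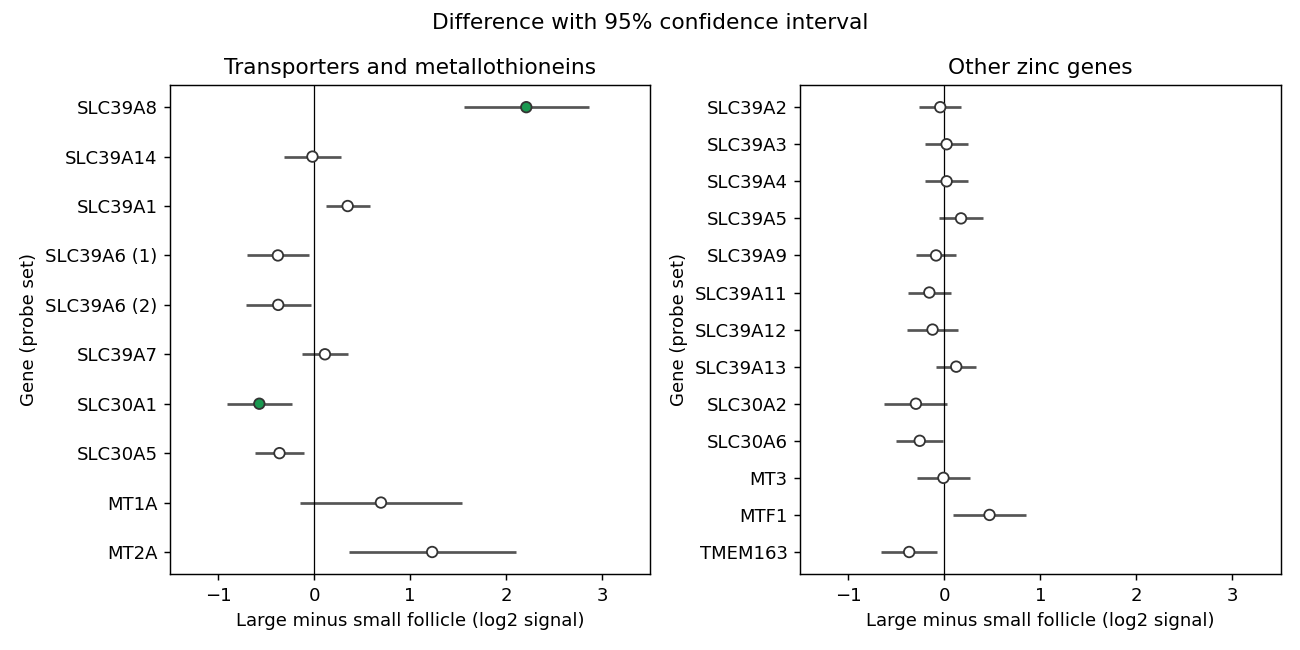
Difference in log2 signal, large minus small follicle, with its 95% confidence interval from the limma fit, for the 10 probe sets (left) and for 13 other zinc genes (right). Filled points passed the threshold over all 24016 probe sets. SLC39A8 at 2.21 lies far to the right of the rest, and none of the 13 other zinc genes is filled.

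Genes of zinc handling outside the set did not pass. Of 27 listed ZIP, ZnT and metallothionein genes and zinc sensors, 13 were measured, and limma with Benjamini-Hochberg adjustment called 0, against 15.4% of all 9155 genes read the same way (at the probe set of each gene with the highest mean). At an unadjusted p under 0.05 there were 3, MTF1, SLC30A6 and TMEM163. Their median difference was -0.04, against 0.01 for all genes, and their differences ran from -0.37 to 0.47. Another tool was not run.

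MTF1 had the highest of these differences. It read 7.25, 7.03 and 7.63 in large-follicle arrays, against 6.62, 6.99 and 6.89 in small-follicle arrays. The groups came within 0.04 of each other without overlapping. The difference was 0.47 ± 0.17 (limma, Benjamini-Hochberg adjusted p = 0.111; alternatives gave 0.0689 to 0.388), and 0.31 without large-follicle replicate 3.

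SLC30A6, the partner of SLC30A5, read 7.57, 7.37 and 7.27 in large-follicle arrays, against 7.63, 7.70 and 7.65 in small-follicle arrays. The groups did not overlap. The difference was -0.26 ± 0.11 (limma, Benjamini-Hochberg adjusted p = 0.162). SLC30A2, which fills vesicles with zinc and serves the mammary gland, differed by -0.30 ± 0.14 (adjusted p = 0.232 by limma), and was the 1 gene of this list called in any alternative, without large-follicle replicate 3 (-0.46), but was at -0.18 without large-follicle replicate 2. TMEM163, a zinc efflux protein of vesicles, differed by -0.37 ± 0.13 at its brighter probe set and 0.07 ± 0.14 at the other, both at low signal.

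The intervals of the remaining ZIP genes all included 0. SLC39A9, a zinc transporter of the Golgi, averaged 8.83 ± 0.06 in large-follicle arrays and 8.91 ± 0.06 in small-follicle arrays (SD, n = 3 each), a difference of -0.09 with a 95% confidence interval of -0.30 to 0.12. SLC39A5 differed by 0.17 (95% confidence interval -0.06 to 0.40), SLC39A11 by -0.16 and SLC39A13 by 0.12. SLC39A2 and SLC39A12 were dim in both groups, below the lower quartile, at 3.10 and 3.15 for SLC39A2 and at 2.51 and 2.63 for SLC39A12 in large- and small-follicle arrays. The metallothionein MT3, known mainly from the brain, averaged 5.03 and 5.04 in large- and small-follicle arrays. SLC30A10, which exports manganese in humans, was not analysed here.

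SLC39A8 and SLC39A14 also carry iron and manganese, and genes of iron handling changed in both directions. Of 22 listed iron genes 16 were measured, and limma called 2 higher (TFR2 and SLC25A28) and 3 lower (SLC25A37, NCOA4 and SLC11A2), against 7.08% higher and 8.3% lower of all 9155 genes. The groups did not overlap in 11 of the 16, against 36.5% of all genes. Their median difference was 0.07.

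TFR2, a relative of the transferrin receptor that senses transferrin-bound iron in the liver, had the largest difference among them. It read 8.19, 8.43 and 8.34 in large-follicle arrays, against 6.85, 6.49 and 7.09 in small-follicle arrays. All large-follicle arrays lay more than 1 log2 unit above the highest small-follicle array. It rose by 1.51 ± 0.16, or 2.85-fold (limma, Benjamini-Hochberg adjusted p = 0.00143). TFRC, the receptor that takes up transferrin-bound iron in most cells, averaged 5.80 ± 0.08 in large-follicle arrays and 5.96 ± 0.26 in small-follicle arrays (SD, n = 3 each), a difference of -0.16 with a 95% confidence interval of -0.47 to 0.16.

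The 2 mitoferrins, which carry iron into mitochondria, went opposite ways. SLC25A28, or mitoferrin 2, read 9.61, 9.98 and 9.69 in large-follicle arrays, against 8.41, 8.67 and 8.55 in small-follicle arrays. It rose by 1.22 ± 0.13, or 2.32-fold (limma, Benjamini-Hochberg adjusted p = 0.00150). SLC25A37, or mitoferrin 1, read 7.44, 7.30 and 7.60 in large-follicle arrays, against 7.93, 7.95 and 7.95 in small-follicle arrays. The small-follicle arrays were nearly equal and all lay above the large-follicle arrays, and the gene fell by 0.50 on the log2 scale (SE 0.10; limma, Benjamini-Hochberg adjusted p = 0.0187). TFR2 and SLC25A28 were called in 14 of 15 alternatives, all but the one with the 3' minus 5' signal as a covariate (1.19 and 1.00). SLC25A37 lost its call when replicate 1 (-0.49) or 2 (-0.42) of the large-follicle arrays, or replicate 1 (-0.50) or 2 (-0.49) of the small-follicle arrays, was left out. It was also not called with the 3' minus 5' signal (-0.43) or the leukocyte markers (-0.48) as a covariate, or with the replicate block (adjusted p = 0.0518 by limma).

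SLC11A2, which brings iron in at the membrane and from endosomes, differed by -0.39 ± 0.10 (limma, Benjamini-Hochberg adjusted p = 0.0425), and NCOA4, which delivers ferritin for breakdown, by -0.38 ± 0.10 (adjusted p = 0.0382 by limma). NCOA4 lost its call when any 1 of the 6 arrays was left out (-0.42 to -0.32), and SLC11A2 in each case but large-follicle replicate 2 (-0.46 to -0.35). Both also lost their calls with the replicate block and with either covariate, the 3' minus 5' signal (-0.54 for NCOA4 and -0.47 for SLC11A2) or the leukocyte markers (-0.41 for NCOA4 and -0.37 for SLC11A2). The ferritin light chain FTL, at 0.34 ± 0.10, and the haem-degrading enzyme HMOX1, at 0.33 ± 0.09, lay just outside the threshold (limma, Benjamini-Hochberg adjusted p = 0.0557 and 0.0582). SLC11A1, an iron and manganese transporter of macrophage phagosomes, differed by 0.62 ± 0.25 without passing, by 0.31 when large-follicle replicate 1 was left out, and by 0.18 ± 0.14 with the leukocyte markers as a covariate. The plasma iron carrier TF, at -0.32 ± 0.14, did not pass and was below the lower quartile in signal.

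**Figure D4:**
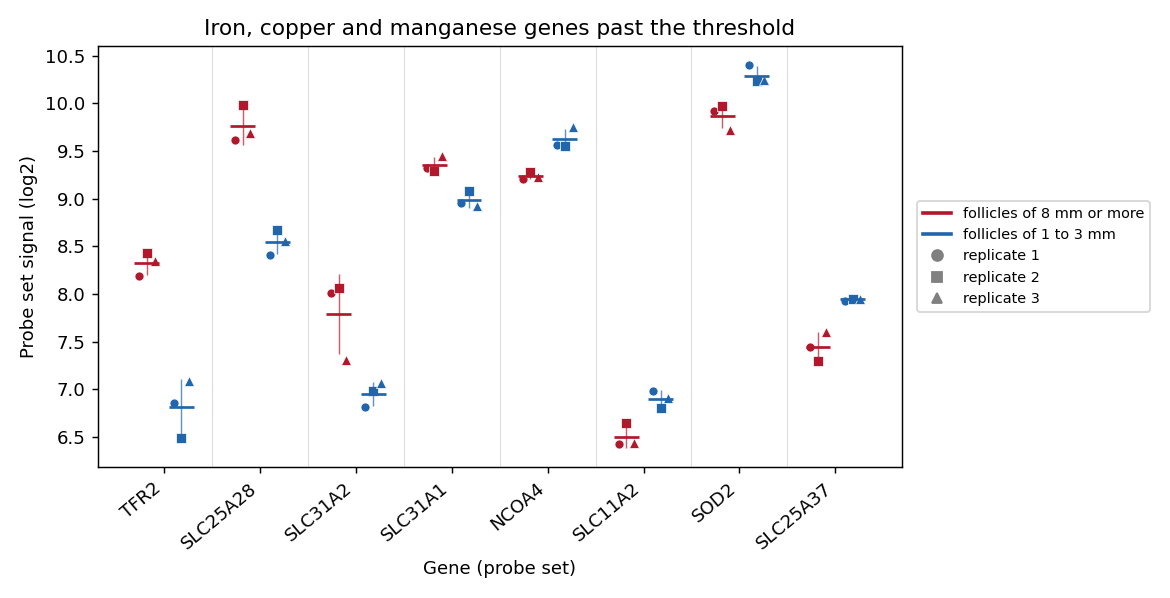
Log2 signal on each of the 6 arrays for the 8 genes of iron, copper and manganese handling that passed the threshold, follicles of 8 mm or more in red and of 1 to 3 mm in blue, with group means (horizontal bars) and SD (vertical lines). TFR2 and SLC25A28 show the widest gaps, and the groups do not overlap in any of the 8, as the threshold favours.

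Of 16 listed genes of copper and manganese handling 12 were measured, and limma called 2 higher, both copper transporters, and 1 lower, SOD2, against 7.08% and 8.3% of all genes. Their median difference was -0.09. SLC31A1, the main copper importer of the plasma membrane, read 9.32, 9.29 and 9.45 in large-follicle arrays, against 8.95, 9.08 and 8.92 in small-follicle arrays. It rose by 0.37 ± 0.10 (limma, Benjamini-Hochberg adjusted p = 0.0424). SLC31A2, a related protein of endosomes and lysosomes, read 8.01, 8.06 and 7.31 in large-follicle arrays, against 6.81, 6.98 and 7.06 in small-follicle arrays. Large-follicle replicate 3 stood closer to the small-follicle arrays than to its own group. It rose by 0.84 ± 0.20, or 1.79-fold (limma, Benjamini-Hochberg adjusted p = 0.0269).

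SOD2, the mitochondrial superoxide dismutase that uses manganese, fell by 0.42 on the log2 scale (SE 0.11; limma, Benjamini-Hochberg adjusted p = 0.0377). SOD1, its cytosolic counterpart that uses copper and zinc, averaged 12.22 ± 0.05 in large-follicle arrays and 12.19 ± 0.11 in small-follicle arrays (SD, n = 3 each). ATP2C1, a calcium and manganese pump of the Golgi, differed by -0.37 ± 0.13 without passing, as did the copper chaperones SCO1 at -0.18 and CCS at 0.13 and the copper regulator COMMD1 at -0.13 (0.12 at its other probe set). SLC31A1 and SOD2 lost their calls when any 1 array was left out (0.32 to 0.42 and -0.47 to -0.35). SLC31A2 lost its call without replicate 1 or 2 of the large-follicle arrays (0.74 and 0.71) or of the small-follicle arrays (0.77 and 0.86). All 3 also lost their calls with the replicate block, with the 3' minus 5' signal as a covariate (0.44 for SLC31A1, 0.63 for SLC31A2 and -0.38 for SOD2) and with the leukocyte markers as a covariate (0.42, 0.64 and -0.45 in the same order).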

How the data were processed

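Biotin-labelled RNA of pooled cumulus cells was read on 6 Affymetrix bovine arrays, per the labels' protocols. The deposited values are signals per probe set on a log2 scale. Per the submitters' processing notes the authors used RMA, and no software, version or detection call is recorded in the sources used here. The 112 control probe sets were left out, which leaves 24016. Of these, 13292 have 1 gene symbol, 86 several and 10638 none, and 13263 matched RefSeq (ARS-UCD2.0) by gene identifier, used for names only.

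The fit used limma 3.58.1 (R 4.3.3), with a constant prior variance and no block, for large minus small follicle, with 2-sided tests. Benjamini-Hochberg adjustment ran over all 24016 probe sets, with no filter on low signal. Lists outside the set used each gene's probe set with the highest mean. The set, the lists and the alternatives were chosen with earlier results of these data known. Besides the set, the text names the called genes of each list, up to 4 more with the smallest p, MTF1 and SLC30A10, and the 4 profiles closest to SLC39A8. Other genes of the lists (TFRC, SOD1, MT3, SLC39A2, SLC39A5, SLC39A9, SLC39A11, SLC39A12 and SLC39A13), the marker genes and LOC613358 were named after their values were seen.

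Alternatives were leaving out each array, a replicate block, a filter at the median signal, quantile and median scaling, array weights, a trended robust prior, the 3' minus 5' signal or the leukocyte markers as covariates, a threshold of 0.01, and the probe set with the smallest p. Tested on simulated data of 24016 probe sets, the fit found 10.4% of 67 changes of 0.5 (log2), 74.6% of 67 changes of 1 and 97% of 66 changes of 2, and made 8 false calls. Only these probe sets were changed, far fewer than the 3094 called in the data, and noise was drawn independently for each value. The shares found need not hold for the data. Markers of endothelial cells (0 higher and 1 lower of 6), the oocyte (0 of 7) and red blood cells (0 of 5) were also read. Matplotlib 3.10.9 under python 3.11.15 drew the figures.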

Additional observations from a re-analysis of the deposited data

How the results depend on the processing

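SLC39A8 stayed higher in large-follicle arrays in all 15 alternatives (1.88 to 2.42) and lost its call with the 3' minus 5' signal (the index) as a covariate (1.93). Of the 10 probe sets 2 were called, against 1 to 2 leaving out 1 array, 1 with the replicate block, with the leukocyte markers or at a threshold of 0.01, 0 with the index, and 4 with array weights or a trended prior. With the median filter or quantile scaling 3 were called. Over all probe sets 3094 were called, against 1615 to 2477 leaving out 1 array, 1964 with the replicate block, 215 with the index, 1419 with the leukocyte markers and 1063 at 0.01. More were called with array weights (4069), a trended prior (3384), quantile scaling (3164) and the median filter (3131). Of the iron genes 5 were called, against 2 to 3 leaving out 1 array, 2 with the block, the leukocyte markers or the 0.01 threshold, and 0 with the index. Quantile scaling gave 4, the probe set with the smallest p 6, and the median filter, array weights or a trended prior 7. Of the copper and manganese genes 3 were called, against 0 to 1 leaving out 1 array and 0 with the block, the index, the leukocyte markers or the 0.01 threshold. Of the other zinc genes 0 were called, and 0 to 1 leaving out 1 array. SLC39A14, at -0.02, ran from -0.085 to 0.10 leaving out 1 array, with the sign turned without large-follicle replicate 2 (0.063) or small-follicle replicate 2 (0.10), and read 0.12 with the index and 0.020 adjusted for leukocyte markers. Leaving out an array leaves fewer samples, a covariate or block leaves fewer degrees of freedom, and a stricter threshold calls fewer. The index did not overlap between the groups, so its part in a lost call cannot be told apart from that of follicle size. Why calls were lost was not tested. Replicate numbers are shared between the groups, but deviations of same-numbered arrays correlated at -0.002, -0.05 and -0.34, so the numbers were not taken as pairs. Those of differently numbered arrays correlated at -0.28 to 0.32, highest for large-follicle replicate 2 with small-follicle replicate 3. Scaling moved the median of all probe sets by under 0.1.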

Other observations

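Probe sets of STEAP3, which reduces iron in endosomes, differed in outcome: the brighter read -0.14 ± 0.13 and did not pass, and the dimmer read -0.39 ± 0.10 and was called lower by limma (Benjamini-Hochberg adjusted p = 0.0420).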
